A study of Homo sapiens with 7 samples.

Results

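The genes described here are the TCF/LEF transcription factors of the Wnt pathway (TCF7L2, TCF7L1, TCF7 and LEF1), their partner β-catenin (CTNNB1) and 5 genes known as Wnt feedback regulators or targets (AXIN2, NKD1, RNF43, LGR5 and DKK1). They are 10 genes picked by name, and 9 of them were measured, out of 17958 genes in all. TCF7 was not analysed here. A gene was read from the transcript clusters whose annotation gave its symbol and no other, taking the brightest by its mean over the 7 arrays, and each of the 9 had a single such cluster. The genes were put forward with results of these same arrays known, so the p-values below, which come from the fit over all genes, describe the members and give no independent support.

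RNA came from SKOV3, a human ovarian carcinoma cell line that the labels class as serous, and was measured on Affymetrix Human Gene 1.1 ST arrays. Their probes lie along whole transcripts and do not separate the splice forms of a gene. There were 3 arrays labelled CtBP1 knockdown, 2 of CtBP2 knockdown and 2 of scramble control. All 7 were stable clones made by lentiviral infection and grown in puromycin, so the controls carry a vector and the drug too, and each array is a clone of its own. The labels state that the knockdown was checked by western blot. Whether cultures were grown separately is not said, so a p-value here weighs a difference against array-to-array spread, part of which may be technical.

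In canonical Wnt signalling a ligand bound to Frizzled and LRP receptors stops the destruction complex from breaking down β-catenin, which then enters the nucleus and binds TCF/LEF factors on DNA. Without β-catenin these factors keep target genes off through co-repressors, chiefly the TLE proteins, and CtBP proteins are further co-repressors that have been linked to TCF factors: in Xenopus, the C-terminal tail of Tcf3 holds CtBP-binding motifs. The pathway switches on its own brakes, among them AXIN2, NKD1, RNF43 and, in many tissues, DKK1, so the RNA of these genes is often read as a gauge of β-catenin activity.

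The targeted gene CTBP2 read 4.64 and 4.22 (log2) in CtBP2 knockdown and 5.70 and 6.14 in scramble clones, a difference of -1.49 ± 0.21 (SE of the limma fit, as for every ± below unless named otherwise) at an adjusted p of 0.180. On arrays labelled CtBP1 knockdown CTBP2 read 6.25, 6.31 and 6.27, above both controls (0.36 ± 0.19, adjusted p = 0.734). Those arrays were 1.85 ± 0.19 above CtBP2 knockdown (adjusted p = 0.129), so CTBP2 had the same order of groups as TCF7L2 and TCF7L1 below. CTBP1 did not separate the arrays labelled CtBP1 knockdown, at 5.11, 6.13 and 6.13, from the scramble arrays, at 5.69 and 6.37, so against scramble the RNA does not bear out that label. All 3 did lie below both CtBP2 knockdown arrays, at 6.81 and 6.32, and below scramble control 2. Every direction drawn from the 3 arrays rests on their label. Scramble control 1 stood apart: the interquartile range of its genes was 2.20 log2 units, where the other 6 arrays had 2.85 to 3.15. All 10 genes of a dividing-cell list were lowest on it, as were 32.3% of all genes. The mean signal of those 10 was 6.97 to 7.07 on arrays labelled CtBP1 knockdown, 7.21 to 7.29 on CtBP2 knockdown arrays, and 4.64 and 7.16 on scramble controls 1 and 2. Of the epithelial and ovarian carcinoma markers, 9 of 11 lay above the median gene, including the keratins KRT7, KRT8, KRT18 and KRT19 and the Müllerian factor PAX8, while CDH1 (mean log2 signal 2.63) and WT1 (2.15) lay below it. None of 8 fibroblast and 6 endothelial markers lay above it, and of 7 leukocyte markers only CD68 (6.61) did. These are bulk RNA values, in which fewer cells expressing a gene cannot be told apart from less RNA per cell.

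TCF7L2 and TCF7L1 lay above the scramble controls on every array labelled CtBP1 knockdown and below them on both CtBP2 knockdown arrays, though neither passed the test over all genes. TCF7L2 had the smallest p of the members in each comparison. This factor, also called TCF4, is the main nuclear partner of β-catenin in the colon epithelium. TCF7L1, also called TCF3, acts mostly as a repressor of Wnt targets. Their RefSeq start-site windows on GRCh38.p14, 250 bases before to 50 after the start, are shown because these genes lay on opposite sides of the controls in the 2 knockdowns. The TCF7L2 window shown is the most upstream of its 3, at chr10:112949997-112950296 on the plus strand, and the TCF7L1 window is at chr2:85133142-85133441 on the plus strand. Neither holds CTTTGA, the core of the TCF/LEF motif, on either strand, so both are in lower case throughout.
TCF7L2: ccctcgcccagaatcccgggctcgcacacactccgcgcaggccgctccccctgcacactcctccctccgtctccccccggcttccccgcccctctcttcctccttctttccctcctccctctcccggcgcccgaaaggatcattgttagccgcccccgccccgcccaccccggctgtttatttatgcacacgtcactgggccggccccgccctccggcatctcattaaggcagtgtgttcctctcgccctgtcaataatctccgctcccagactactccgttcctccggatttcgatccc
TCF7L1: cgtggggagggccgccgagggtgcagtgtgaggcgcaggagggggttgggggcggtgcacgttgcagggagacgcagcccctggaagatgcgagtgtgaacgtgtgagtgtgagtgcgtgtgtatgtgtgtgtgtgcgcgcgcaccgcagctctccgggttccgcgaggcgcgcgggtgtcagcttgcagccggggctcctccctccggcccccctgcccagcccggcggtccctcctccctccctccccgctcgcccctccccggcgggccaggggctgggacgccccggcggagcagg

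The log2 signal of TCF7L2 was 6.84, 6.69 and 6.99 on arrays labelled CtBP1 knockdown, 5.67 and 5.75 on CtBP2 knockdown arrays, and 6.15 and 6.22 on scramble arrays. All 3 arrays labelled CtBP1 knockdown lay above both controls and both CtBP2 knockdown arrays lay below them, so no pair of groups overlapped. The groups averaged 6.84 ± 0.15 (SD, n = 3), 5.71 ± 0.06 (SD, n = 2) and 6.19 ± 0.05 (SD, n = 2). The arrays labelled CtBP1 knockdown were 0.66 ± 0.13 above scramble on the log2 scale (1.58-fold), which ranked 36th of 17958 genes by p but did not pass the test over all genes (adjusted p = 0.734). CtBP2 knockdown lay 0.48 ± 0.14 log2 units below scramble (a difference of -0.48, 1.40-fold lower, adjusted p = 0.393). Set directly against each other, the arrays labelled CtBP1 knockdown were 1.14 ± 0.13 above CtBP2 knockdown (2.20-fold), the 15th smallest p of all genes, again short of the threshold at an adjusted p of 0.129. With array weights, which count more variable arrays less, that adjusted p was 0.0155, as 272 genes then passed the threshold in that comparison. Without scramble control 2 the arrays labelled CtBP1 knockdown differed from scramble at an adjusted p of 0.0388, as 3262 genes then passed the threshold. The comparisons with scramble share their 2 controls. In the deposited values these differed for TCF7L2 by 0.07 log2 units, on arrays of unlike spread (interquartile ranges of 2.20 and 3.11).

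TCF7L1 ran in the same order at a lower signal. Its log2 values were 5.06, 5.28 and 5.33 on arrays labelled CtBP1 knockdown, 4.62 and 4.61 on CtBP2 knockdown arrays, and 4.86 on both scramble arrays. Again no pair of groups overlapped. The difference from scramble was 0.37 ± 0.12 for the arrays labelled CtBP1 knockdown (adjusted p = 0.734) and -0.24 ± 0.13 for CtBP2 knockdown (adjusted p = 0.535). The direct difference was 0.61 ± 0.12, or 1.53-fold (adjusted p = 0.291). Both controls carried the identical deposited value, as happened between some pair of arrays for 7180 genes (40%), and a tie within a group understates its spread. Under renewed quantile normalization the 2 differences from scramble were 0.11 and -0.58, and the arrays labelled CtBP1 knockdown then overlapped the controls, while the direct difference was 0.69.

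LEF1, a factor that leans towards activation and is itself a Wnt target in several tissues, did not follow that order. Its signal was near the bottom of the array's range, at 2.05, 1.58 and 2.01 on arrays labelled CtBP1 knockdown, 1.96 and 1.68 on CtBP2 knockdown arrays, and 2.39 and 2.25 on scramble arrays. Both knockdown groups lay wholly below the controls and overlapped each other. The differences were -0.44 ± 0.19 (adjusted p = 0.734) and -0.50 ± 0.20 (adjusted p = 0.492) against scramble, and 0.06 ± 0.19 between the knockdowns. LEF1's mean signal exceeded that of 20.5% of genes, a level at which an array can hardly tell low expression from none.

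CTNNB1, which encodes β-catenin, was the brightest member, above 98.9% of genes. It read 8.62, 8.58 and 8.59 on arrays labelled CtBP1 knockdown, 8.68 and 8.78 on CtBP2 knockdown arrays, and 8.59 and 8.91 on scramble arrays. The controls alone spanned nearly the whole range of the 7 arrays, 0.33 log2 units. Its differences from scramble were -0.15 ± 0.13 for the arrays labelled CtBP1 knockdown and -0.03 ± 0.15 for CtBP2 knockdown, with adjusted p of 0.745 and 0.947. Wnt signalling acts on β-catenin mainly through the stability of the protein, which these arrays do not measure.

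**Figure D1:**
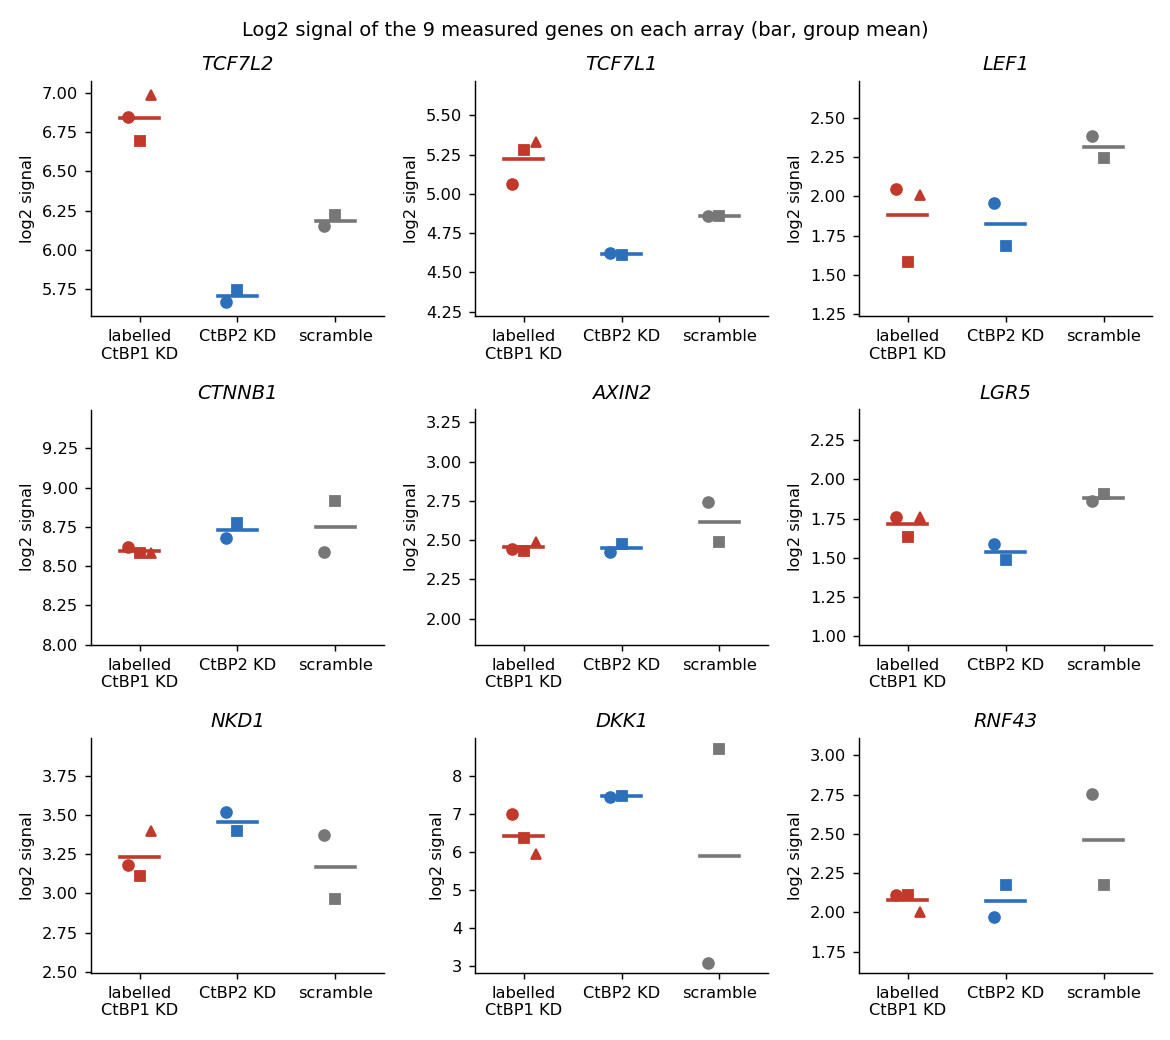
Log2 signal of the 9 measured members on each of the 7 arrays (vertical axis, log2 units, with its own range in each panel), grouped as labelled CtBP1 knockdown, CtBP2 knockdown and scramble control. Each point is an array, its shape gives the replicate number and the bar is the group mean. TCF7L2 and TCF7L1 show 3 groups without overlap, while for DKK1 the 2 controls, at 3.09 and 8.71, lie at both ends of the range.

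Of the feedback genes, AXIN2, which encodes a scaffold of the destruction complex and is among the most widely used readouts of β-catenin, had a nearly flat signal. It was 2.44, 2.43 and 2.49 on arrays labelled CtBP1 knockdown, 2.42 and 2.48 on CtBP2 knockdown arrays, and 2.74 and 2.49 on scramble arrays. The 5 knockdown arrays ran from 2.42 to 2.49, scramble control 2 equalled the highest of them and scramble control 1 stood above. Without that control the differences from scramble were -0.03 and -0.04. On all arrays they were -0.16 ± 0.12 (adjusted p = 0.735) and -0.17 ± 0.13 (adjusted p = 0.596), and the knockdowns differed by 0.01 ± 0.12.

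NKD1, an inhibitor that binds Dishevelled, had 3.18, 3.11 and 3.39 on arrays labelled CtBP1 knockdown, 3.52 and 3.39 on CtBP2 knockdown arrays, and 3.37 and 2.96 on scramble arrays. Both CtBP2 knockdown arrays lay above both controls, by 0.29 ± 0.18 on average (adjusted p = 0.550; they overlapped under renewed quantile normalization and median centring), and the arrays labelled CtBP1 knockdown overlapped them (0.06 ± 0.17, adjusted p = 0.919). That last value turned with the control, being 0.26 without scramble control 1 and -0.14 without scramble control 2. RNF43, a ubiquitin ligase that removes Frizzled receptors from the cell surface, had 2.11, 2.11 and 2.00 on arrays labelled CtBP1 knockdown, 1.97 and 2.17 on CtBP2 knockdown arrays, and 2.75 and 2.17 on scramble arrays. Its differences from scramble were -0.39 ± 0.19 (adjusted p = 0.734) and -0.39 ± 0.21 (adjusted p = 0.534). They rested on scramble control 1: without it they were -0.10 and -0.10, and without scramble control 2 they were -0.68 (adjusted p = 0.0314) and -0.68 (adjusted p = 0.0300).

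LGR5, an R-spondin receptor and a marker of Wnt-driven stem cells in the intestine, was the dimmest member, above 9.3% of genes. Its log2 signal was 1.76, 1.63 and 1.76 on arrays labelled CtBP1 knockdown, 1.59 and 1.49 on CtBP2 knockdown arrays, and 1.86 and 1.91 on scramble arrays. Here no pair of groups overlapped either, with both knockdowns below the controls, by -0.17 ± 0.11 for the arrays labelled CtBP1 knockdown (adjusted p = 0.734) and by -0.35 ± 0.12 for CtBP2 knockdown (adjusted p = 0.440). The direct difference was 0.18 ± 0.11 (adjusted p = 0.836). Under renewed quantile normalization the arrays labelled CtBP1 knockdown overlapped both other groups, and the differences from scramble were -0.08 and -0.20.

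DKK1, a secreted protein that blocks the LRP co-receptors, was bright and by far the most variable member. Its start-site window, at chr10:52314031-52314330 on the plus strand of GRCh38.p14, was the only one of the 11 RefSeq windows of 7 members to hold CTTTGA or its reverse complement TCAAAG. Both matches are in capitals: one on the minus strand at bases -149 to -144 from the start site and one on the plus strand at -95 to -90. For comparison, 12.9% of all 35116 windows of that length hold the motif, and a match describes letters, not binding.
DKK1: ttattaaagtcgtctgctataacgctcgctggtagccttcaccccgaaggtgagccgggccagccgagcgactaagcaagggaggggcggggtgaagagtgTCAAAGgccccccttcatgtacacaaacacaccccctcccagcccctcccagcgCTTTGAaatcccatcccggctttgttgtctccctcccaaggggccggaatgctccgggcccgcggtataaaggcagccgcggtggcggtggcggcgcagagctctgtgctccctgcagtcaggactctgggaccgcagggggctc

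The log2 signal of DKK1 was 6.98, 6.36 and 5.94 on arrays labelled CtBP1 knockdown, 7.44 and 7.48 on CtBP2 knockdown arrays, and 3.09 and 8.71 on scramble arrays. The 2 controls were 5.62 log2 units apart, the widest gap between them of any of the 17958 genes, and every knockdown array lay between them. The differences from scramble, 0.53 ± 1.51 and 1.56 ± 1.65, were smaller than their errors (adjusted p = 0.921 and 0.684). Their sign was set by which control was used: without scramble control 1 they were -2.28 (adjusted p = 0.401) and -1.25 (adjusted p = 0.417), and without scramble control 2 they were 3.34 (adjusted p = 0.0152) and 4.37 (adjusted p = 0.00874). The direct comparison does not use the control means: all 3 arrays labelled CtBP1 knockdown lay below both CtBP2 knockdown arrays, by -1.03 ± 1.51, an error that the controls' spread enters through the shared estimate (adjusted p = 0.991). The dividing-cell genes were likewise lowest on scramble control 1, and their part in the DKK1 values was not tested.

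**Figure D2:**
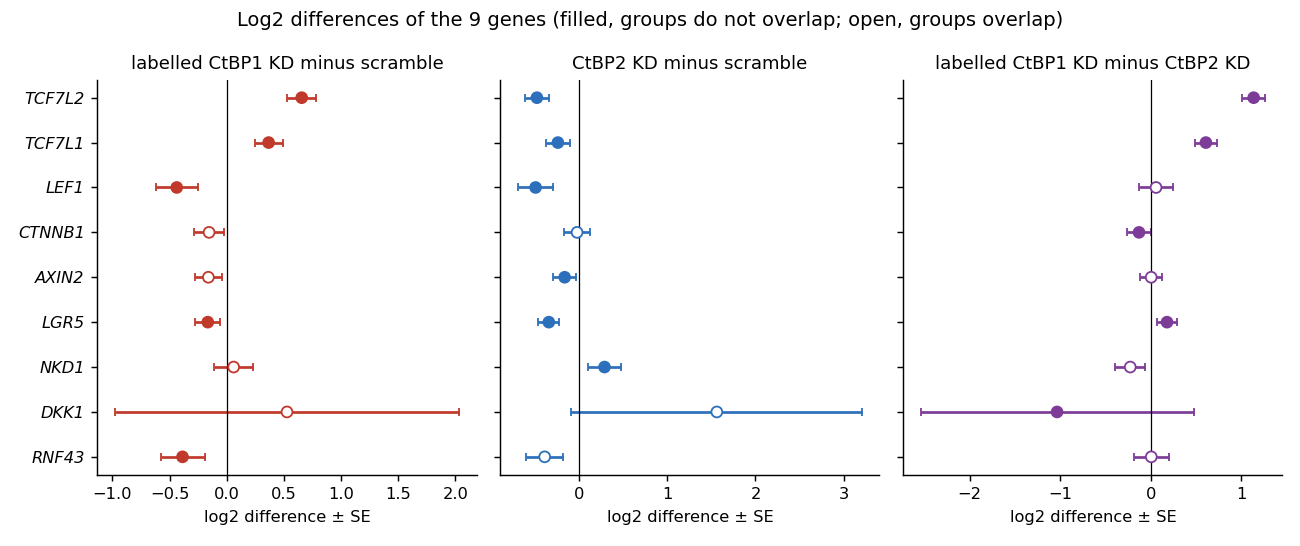
Log2 difference of each measured member (points) with its standard error from the limma fit (bars), in the comparisons of labelled CtBP1 knockdown against scramble, CtBP2 knockdown against scramble, and the 2 knockdowns against each other. Filled points mark groups that do not overlap. TCF7L2 has the largest direct difference with a small error (1.14 ± 0.13), and the bars of DKK1 span more than 1 log2 unit each way.

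Read as a set, no member passed the limma test after Benjamini-Hochberg adjustment in any comparison. Against scramble, the arrays labelled CtBP1 knockdown had 0 of 9 members called, where 0% of all genes were, and 2 (TCF7L2 and TCF7L1) had an unadjusted p under 0.05, as 4.79% of all genes did. In that comparison 2 members lay wholly above the controls (all genes 6.76%) and 3 wholly below (7.59%): LEF1, LGR5 and RNF43. CtBP2 knockdown against scramble called 0 members (0.00557% of all genes, which is 1 gene), with 2 members (TCF7L2 and LGR5) at an unadjusted p under 0.05 (10.2%). There 1 member, NKD1, lay wholly above the controls (19.3%) and 5 wholly below (21.7%): TCF7L2, TCF7L1, LEF1, AXIN2 and LGR5. In the direct comparison 0 members were called (0% of all genes) and 2, again TCF7L2 and TCF7L1, had an unadjusted p under 0.05 (7.77%). The arrays labelled CtBP1 knockdown lay wholly above CtBP2 knockdown for 3 members (16.2%) and wholly below for 2 (15.8%). The median member difference was -0.15, -0.24 and 0.01 in the 3 comparisons, against -0.0047, -0.020 and 0.015 over all genes. Since the members were chosen with these contrasts known, nothing is read from the counts.

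Several dim members were highest on the control that stood apart, as were many other dim genes, and 4 members are too few to compare the rates. LEF1, AXIN2, LGR5 and RNF43 lay below the median mean signal of all genes (3.25), and 3 of these 4 (not LGR5) were highest on scramble control 1, as were 53.1% of the 8979 genes below that median. Without that control, the differences from scramble were -0.37 and -0.43 for LEF1 and -0.19 and -0.37 for LGR5, close to those on all arrays, while those of AXIN2 and RNF43 came near 0.

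Other genes of the pathway were read from lists grouped by role, 130 genes measured beside the members. None passed the adjusted threshold. An unadjusted p under 0.05 was found for 6 of 130 where the arrays labelled CtBP1 knockdown were set against scramble (4.62%, against 4.79% of all genes), for 11 in CtBP2 knockdown against scramble (8.46%, against 10.2%) and for 6 in the direct comparison (4.62%, against 7.77%). Their median differences were 0.04, -0.0043 and -0.02. The pathway as listed thus had no larger share of small p-values than the array as a whole.

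Among ligands and their carriers, WNT7A was the brightest Wnt named, with 7.81, 7.81 and 8.95 on arrays labelled CtBP1 knockdown, 7.54 and 7.50 on CtBP2 knockdown arrays, and 4.90 and 7.51 on scramble arrays. Its differences of 1.98 ± 0.77 and 1.31 ± 0.85 came down to 0.68 and 0.01 without scramble control 1. The 19 ligands had median differences of -0.01 and 0.03. All 6 measured genes for Wnt secretion and R-spondins lay below scramble in both comparisons (medians -0.23 and -0.12), with WLS, the carrier of Wnt proteins to the cell surface, at -0.42 ± 0.31 and -0.87 ± 0.34. Without scramble control 1 both medians were smaller in size but still below 0, at -0.05 and -0.02. RSPO3 was then at 0.0017 in CtBP2 knockdown, and WLS was at -0.15 and -0.60. Under renewed quantile normalization the second median was -0.0087.

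Of the 19 receptors, 1 (5.26%) and 3 (15.79%) had an unadjusted p under 0.05 against scramble, where 4.79% and 10.17% of all genes did. These receptors lay on the higher side, as did 516 of 861 and 1291 of 1827 such genes on the whole array. ROR1, a receptor for WNT5A, had 5.13, 5.07 and 5.05 on arrays labelled CtBP1 knockdown, 5.44 and 5.20 on CtBP2 knockdown arrays, and 4.52 and 4.50 on scramble arrays. Every knockdown array lay above both controls, by 0.58 ± 0.12 (adjusted p = 0.734) and 0.81 ± 0.13 (adjusted p = 0.218), and the controls nearly coincided. FZD7 and the co-receptor LRP5 were the other 2 in the CtBP2 knockdown comparison, at 0.44 ± 0.17 and 0.82 ± 0.28, and without scramble control 1 FZD7 was at 0.25. The receptor medians of 0.14 and 0.14 were -0.0071 and 0.03 without that control. None of the 13 secreted antagonists had such a p in any comparison, and the largest differences were those of DKK3, 0.96 and 0.99, with 4.06 and 5.74 on the controls, and 0.12 and 0.15 without scramble control 1. In the destruction complex, 18 genes measured, AXIN1, the constant counterpart of AXIN2, was 0.96 ± 0.34 above scramble in CtBP2 knockdown and 0.12 ± 0.31 in the arrays labelled CtBP1 knockdown. Without scramble control 1 these were 0.59 and -0.25.

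The nuclear cofactors held the gene with the smallest p of the lists. SOX17, a factor that restrains β-catenin and TCF and marks the Müllerian epithelium, had 4.66, 4.86 and 5.14 on arrays labelled CtBP1 knockdown, 5.84 and 5.49 on CtBP2 knockdown arrays, and 4.12 and 4.27 on scramble arrays. No pair of groups overlapped. It lay 0.69 ± 0.19 and 1.47 ± 0.21 above scramble (adjusted p = 0.734 and 0.180), and the arrays labelled CtBP1 knockdown were -0.78 ± 0.19 from CtBP2 knockdown. The TLE co-repressors, which TCF/LEF factors bind, had no p under 0.05 in either comparison with scramble: TLE1 differed by 1.42 ± 0.60 and 1.11 ± 0.66, TLE3 by 0.07 and -0.10, and TLE4 by 0.49 and -0.33. TLE1 read 3.83 and 5.91 on the controls, and without scramble control 1 its differences were 0.38 and 0.06. TLE4 read 2.63 and 5.77 on the controls, and its sign turned with them: its differences were -1.09 and -1.90 without scramble control 1, and 2.06 (adjusted p = 0.0411) and 1.24 without scramble control 2. The list's medians of 0.31 and 0.30 turned to -0.12 and -0.07 without scramble control 1, and the second was -0.00304 under renewed quantile normalization.

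Wnt target genes outside the members went both ways. CCND1, the cell-cycle gene cyclin D1, had 6.16, 7.08 and 6.75 on arrays labelled CtBP1 knockdown, 7.50 and 7.44 on CtBP2 knockdown arrays, and 6.67 and 6.28 on scramble arrays. Both CtBP2 knockdown arrays were the highest of the 7, at 0.99 ± 0.31 above scramble (adjusted p = 0.420), and the arrays labelled CtBP1 knockdown overlapped the controls (0.19 ± 0.28). MYC, a growth-promoting transcription factor, differed by 0.89 ± 0.44 and 1.13 ± 0.48, with 4.09 and 5.39 on the controls, and by 0.24 and 0.48 without scramble control 1. The adhesion receptor CD44 was 0.15 ± 0.12 and 0.46 ± 0.13 above scramble, the matrix protease MMP7 1.27 ± 0.41 and 0.71 ± 0.45, and TWIST1, a mesenchymal factor, stood at -0.52 ± 0.21 and -0.57 ± 0.23. Without scramble control 1 CD44 was at 0.07 and 0.38, MMP7 at 1.81 and 1.25, and TWIST1 at -0.20 and -0.25. Over the 27 targets the medians were 0.09 and -0.07, and both turned sign without scramble control 1, to -0.04 and 0.01. Of the cadherins and catenins, JUP, the plakoglobin that can stand in for β-catenin at junctions, was 1.02 ± 0.18 above scramble in the arrays labelled CtBP1 knockdown (adjusted p = 0.734) and 0.35 ± 0.20 in CtBP2 knockdown, the second being 0.18 without scramble control 1.

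**Figure D3:**
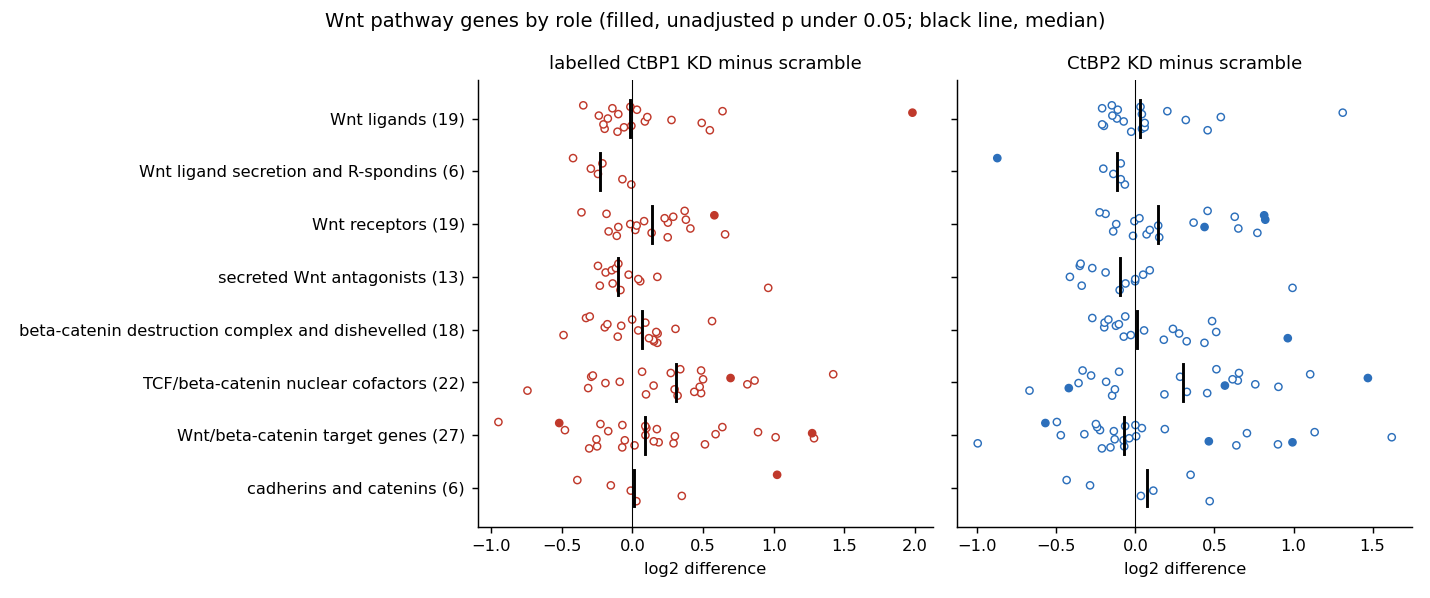
Log2 difference from scramble control of the other Wnt genes, grouped by role, in the arrays labelled CtBP1 knockdown and in CtBP2 knockdown. Each point is a gene, filled where the unadjusted p is under 0.05, and the black line is the list's median. Points lie on both sides of 0 in every list except Wnt secretion and R-spondins, whose 6 genes are all below it. Without scramble control 1 the medians of those 6 are -0.05 and -0.02, and RSPO3 is at 0.0017 in CtBP2 knockdown.

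Genes whose signal ran most like that of TCF7L2 were found by the root mean square difference of gene-centred log2 signals over the 7 arrays, among 17295 genes. Searches for nearest genes left out symbols starting with LOC, LINC, MIR or SNOR and genes on the Y chromosome. The nearest were NBR2 (0.146), a non-coding gene beside BRCA1, then HOXB5 (0.165), a homeobox factor, TRERF1 (0.167), a zinc-finger regulator, FAM204A (0.177) and CGNL1 (0.186), a tight-junction protein. The median gene was 0.534 away, TCF7L1 0.245 and LEF1 0.555. NBR2 had 5.97, 5.90 and 6.05 on arrays labelled CtBP1 knockdown, 5.08 and 5.25 on CtBP2 knockdown arrays, and 5.49 and 5.58 on scramble arrays, the same order of groups as TCF7L2.

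For DKK1, the member with the widest range, the nearest were PLK2 (0.599), a stress-responsive polo-like kinase, DHCR7 (0.627), a late enzyme of cholesterol synthesis, and the cell-division genes ANLN (0.695), AURKA (0.736) and CDKN3 (0.744), against a median of 1.643. AURKA is also in the dividing-cell list. PLK2 had 8.16, 7.68 and 7.77 on arrays labelled CtBP1 knockdown, 8.01 and 8.36 on CtBP2 knockdown arrays, and 3.68 and 8.52 on scramble arrays, so its likeness to DKK1 lies in the low value on scramble control 1. These likenesses describe 7 arrays and were not tested.

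**Figure D4:**
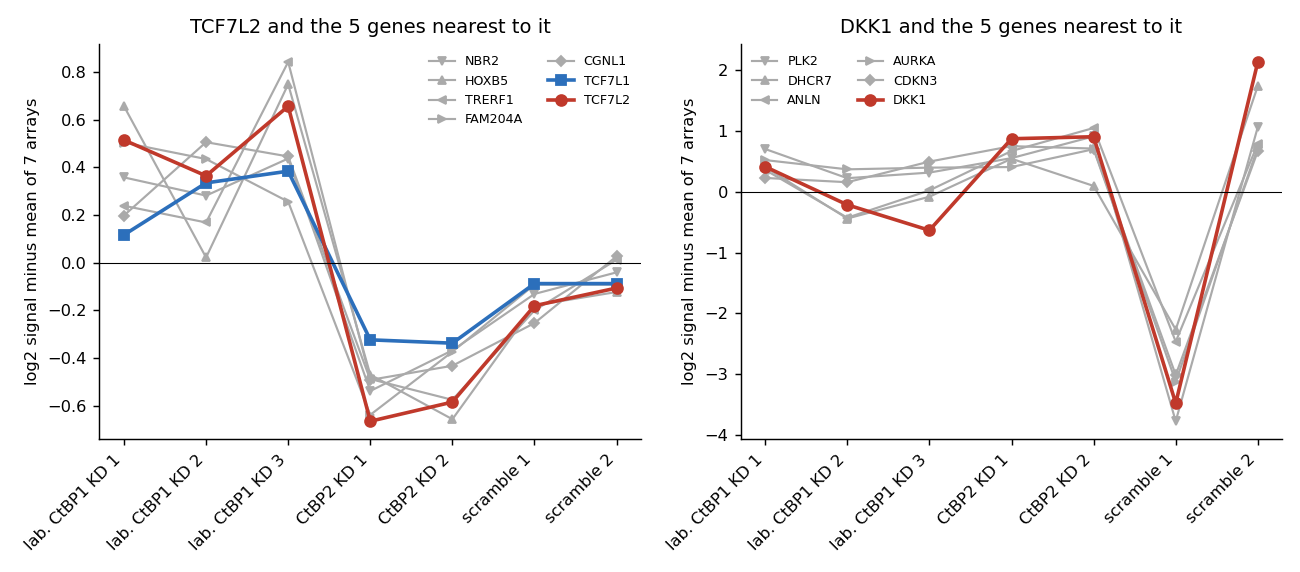
Gene-centred log2 signals (vertical axis, log2 units from the gene's mean over 7 arrays) of TCF7L2 with its 5 nearest genes and TCF7L1, and of DKK1 with its 5 nearest genes, on each array. Lines join the points of a gene and imply no order of arrays. The TCF7L2 set is highest on arrays labelled CtBP1 knockdown and lowest on CtBP2 knockdown, and the DKK1 set is lowest on scramble control 1.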

How the data were processed

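The authors deposited 1 log2 signal for each transcript cluster on each array. Per the submitters' processing notes, RMA in Affymetrix Expression Console made them; versions are not given in the sources used here. RMA corrects background, equalises probe distributions and summarises probes. The labels name both a column kit and TRIzol for RNA extraction. Of 33297 clusters, 19181 carry exactly 1 symbol in GEO's platform annotation, 2055 several and 12061 none here. For 17930 genes the current symbol was looked up by Entrez identifier, whether or not it had changed, and 28 without a match kept the annotation's symbol. The brightest cluster was used for 895 genes with several, leaving 17958 genes with no filter on dim ones. Arrays have no read depth, and their number limits the precision.

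A linear model with 3 group means was fitted to all 7 arrays with limma 3.58.1 in R 4.3.3 (lmFit, eBayes, 4 residual degrees of freedom), and two-sided p-values were adjusted by Benjamini-Hochberg over all genes within each of 3 comparisons, at a threshold of 0.05. The fit was tested on simulated data. Members, lists, markers and tests were chosen with earlier results of these data known. Genes named were the members, CTBP1, CTBP2, TLE1 to TLE5, MYC, CCND1, up to 3 genes of each list with the smallest p per comparison, and the 5 nearest genes of TCF7L2 and of the widest-ranging member; CDH1, WT1, PAX8, CD68 and the keratins are named as cell markers. Not all were described. List genes without a cluster of their own were not analysed here. Promoter windows are RefSeq's on GRCh38.p14; AXIN2, LGR5 and NKD1 had none. Alternatives were array weights, a replicate block, robust eBayes, a mean-variance trend, 2-group fits, centring on the median or a renewed quantile normalization, means of clusters, and leaving out dim genes, tied genes or each array. Figures were drawn with matplotlib 3.10.9.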

Additional observations from a re-analysis of the deposited data

Results flagged for a closer look

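TCF7L2 was picked out because every array labelled CtBP1 knockdown lay above both scramble controls while every CtBP2 knockdown array lay below them. The arrays labelled CtBP1 knockdown were 1.14 ± 0.13 log2 units above CtBP2 knockdown (SE of the limma fit), at an adjusted p of 0.129, so the difference between the knockdowns did not pass the threshold. TCF7L1 showed the same split, with a direct log2 difference of 0.61 ± 0.12 at an adjusted p of 0.291. The targeted gene CTBP2 had this order of groups too, with a direct difference of 1.85 ± 0.19 (adjusted p = 0.129). The comparisons with scramble share their controls, and the direct comparison does not use the control means.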

How the results depend on the processing

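In the fit of 3 group means to the deposited values, without array weights, no member passed the test. With array weights TCF7L2 and TCF7L1 passed it in the direct comparison. Fits that leave a single control are not counted here. For DKK1 and TLE4 the sign of both differences from scramble turned with the control left out. Counts of genes past the adjusted threshold did move: CtBP1 (as labelled) against CtBP2 knockdown gave 7 genes under renewed quantile normalization and 272 with array weights, while the 1 gene of CtBP2 knockdown against scramble became 0 with array weights, robust eBayes, the fit of only the groups compared and the replicate block. The labels do not say whether replicate numbers pair the clones. Same-numbered arrays deviated together at correlations of -0.354 to 0.098. In a group of 2 arrays the deviations mirror each other, so these correlations cannot decide it. The replicate block gave 0 genes in each comparison. With each array left out in turn, 0 to 3262 genes passed between labelled CtBP1 knockdown and scramble, 0 to 3952 between CtBP2 knockdown and scramble and 0 between the knockdowns, and both high counts came without scramble control 2, which leaves the outlying control alone and assumed to vary like the other groups.

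Of the members, 5 did not overlap between labelled CtBP1 knockdown and scramble. That count was 2 among genes above the median signal and 3 above the lower quartile or without tied genes, since fewer members are tested there, and 5 to 8 with an array left out (8 without scramble control 1, where 44.1% of all genes did not overlap). For CtBP2 knockdown against scramble it was 6, then 3 above the median signal, 3 without tied genes, and 6 to 9 with an array left out (9 without scramble control 2, against 87.6% of all genes). For the direct comparison it was 5, and 5 to 8 with an array left out (8 without CtBP2 knockdown array 2, against 50% of all genes). Renewed quantile normalization gave 4, 6 and 4, where 21.2%, 43.7% and 34.6% of all genes did not overlap. Median centring gave 7, 6 and 6, against 16.7%, 49.8% and 33.5%. The share of all genes was 14.4%, 41.0% and 32.0% on all arrays. For labelled CtBP1 knockdown against scramble it was 14.8% above the median signal, 14.4% above the lower quartile and 16.1% without tied genes. For CtBP2 knockdown against scramble it was 40.7% above the median signal and 45.6% without tied genes.

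TCF7L2 kept its order of groups under median centring and under renewed quantile normalization. The other settings refit, filter or leave out the same values, so they could not break that order. The direct difference of TCF7L2 was 1.24 under renewed quantile normalization (adjusted p = 0.179). The adjusted p of the direct difference ranged from 0.0155 to 1 for TCF7L2, and was 0.0433 for TCF7L1 with array weights. Signals near the array's floor limit what LEF1, LGR5, RNF43 and AXIN2 can show.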
